A study of Mus musculus with 12 samples.

Results

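Interferon-stimulated genes are the genes that cells switch on after an interferon binds its receptor. A list of 39 of them, given by name with earlier results of these data known, was described in regulatory T (Treg) cells, the CD4+ T cells that hold immune responses in check. A gene was taken as measured where a transcript cluster of the array, the set of probes that reads 1 transcript locus, carried that gene as its only symbol. This held for 35 of the 39 genes, out of 22180 genes measured in this way. Oas1a, Gbp2 and Ifi47 share their transcript cluster with another symbol and Ifi44 had no transcript cluster named for it, so these 4 were not analysed here. The rule kept the transcript cluster with the highest mean where a gene had several, which concerned 1 gene (Ifi35).

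The RNA came from CD4+YFP+ Treg cells sorted from mouse spleen and lymph nodes and was hybridized to 12 Affymetrix mouse arrays, 3 for each of 4 genotypes. Female mice labelled Foxp3Cre/+ served as control for females labelled Foxp3Cre/+Lkb1f/f, whose Treg cells delete the kinase Lkb1, and males labelled Foxp3Cre served as control for males labelled Foxp3CreTgfbr2 f/f, whose Treg cells delete a receptor subunit for TGF-beta. In all 4 genotypes, controls included, Cre was fused to YFP and driven from the Foxp3 locus, and the mice had been backcrossed to C57BL/6. Foxp3 lies on the X chromosome, so a Foxp3Cre/+ female carries Cre in a portion of her Treg cells only, sorted here by YFP, beside Treg cells without Cre, whereas all Treg cells of a Foxp3Cre male carry it. The age of the mice used for the arrays, and whether animals were pooled, were not given in the sources used here. By their labels the 3 arrays of each genotype are biological replicates, and their numbers 1 to 3 are those of the labels.

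Type I interferons bind the receptor Ifnar1/Ifnar2, whose kinases Jak1 and Tyk2 start the signal. Stat2 and Irf9 carry it to the DNA in the complex ISGF3, which binds the interferon-stimulated response element (ISRE). Interferon-gamma uses another receptor and another DNA element, the gamma-activated site (GAS), through which Irf1 and many GTPases are raised. The products cut or modify viral RNA, block translation, tag proteins with Isg15 and feed back on the pathway, and in T cells the same genes report that the cell has met interferon.

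The motifs themselves are shown because they are the DNA elements named above. The choice of genes did not use the letters. The genes were listed as interferon-stimulated, however, so the shares below are not independent of the choice. Promoter windows reaching from 250 bases before to 50 bases after the RefSeq start (build GRCm38.p6) were at hand for 30 of the 39 genes, Dhx58, Mx1, Mx2, Oas2, Parp9, Parp14, Rtp4, Usp18 and Zbp1 being the others. Searched on both strands, with overlapping matches counted, the ISRE core, GAAA and a second GAAA with 2 bases of any kind between them (TTTC on the other strand), lay in the windows of 15 of the 30 genes (50%), against 3.99% of the 27025 genes with a window. The GAS letters TTCNNNGAA, which read the same on both strands, lay in the windows of 9 of the 30 (30%), against 9.55%. A match is a description of the letters and was not tested as a binding site. The stretches below are written 5′ to 3′ on the gene's own strand with up to 15 bases on either side, ending at the start, and capitals mark the matched letters.
Isg15: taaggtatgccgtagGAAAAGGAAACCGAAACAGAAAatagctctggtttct
Ifit1: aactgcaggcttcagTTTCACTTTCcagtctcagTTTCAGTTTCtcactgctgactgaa
Ifit3: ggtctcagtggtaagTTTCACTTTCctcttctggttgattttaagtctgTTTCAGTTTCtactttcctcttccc
Rsad2: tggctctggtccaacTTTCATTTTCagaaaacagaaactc
Oas3: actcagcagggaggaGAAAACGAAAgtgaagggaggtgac
Irgm1: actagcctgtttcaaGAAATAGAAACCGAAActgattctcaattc
Igtp: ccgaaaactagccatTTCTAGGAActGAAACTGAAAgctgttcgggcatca
Irf1: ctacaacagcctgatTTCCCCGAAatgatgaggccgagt

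The Isg15 stretch (chr4:156200860-156200911, minus strand) holds 3 overlapping ISRE cores within 93 to 42 bases before the start. Ifit1 (chr19:34640770-34640828, plus strand) and Ifit3 (chr19:34583358-34583431, plus strand) hold 2 separate cores each, in the opposite orientation. Rsad2 (chr12:26456548-26456587, minus strand) and Oas3 (chr5:120777710-120777749, minus strand) hold 1 core each, and Irgm1 (chr11:48871421-48871465, minus strand) holds 2 overlapping ones directly before its start. Igtp (chr11:58199496-58199546, plus strand) carries a GAS match followed by an ISRE core, and Irf1 (chr11:53769909-53769947, plus strand) carries a GAS match with no ISRE core in its window. The stretches end at the transcription start, so only matches upstream of it are shown. The counts above also include matches after the start, namely the ISRE cores of Ddx58, Eif2ak2 and Ifih1 and the GAS match of Ifi35.

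The deposited log2 values were centred on each array's median, so that every value below is a log2 distance from the median transcript cluster of its array and is compared only with the same gene on other arrays. Before centring, 8 arrays had medians of 5.48 to 5.60 and 4 had medians of 6.30 to 6.33. The latter, Foxp3Cre/+ replicate 3, Foxp3Cre/+Lkb1f/f replicate 3, Foxp3Cre replicate 3 and Foxp3CreTgfbr2 f/f replicate 1, are called higher-intensity arrays here. These 4 arrays also went against their labelled sex. Xist, transcribed from the inactive X chromosome, was at -0.999 and -1.24 on the female-labelled pair but at 4.37 to 5.20 on the other female-labelled arrays, and at 4.54 and 4.70 on the male-labelled pair but at -0.93 to -0.40 on the other male-labelled arrays. Eif2s3y, a gene of the Y chromosome, was at 3.11 and 3.00 on the female-labelled pair and at -1.88 to -1.68 on the other female-labelled arrays. Foxp3 lies on the X chromosome, so male cells cannot be Foxp3Cre/+. The genotype labels of the female-labelled pair thus do not match the sex that these genes show. Each comparison is therefore also given without the 4 higher-intensity arrays. The deleted genes do not settle the labels. Stk11, which encodes Lkb1, was at 2.96, 2.90 and 3.15 on Foxp3Cre/+ and at 2.68, 2.33 and 3.27 on Foxp3Cre/+Lkb1f/f, and Tgfbr2 was at 3.04, 2.71 and 3.48 on Foxp3Cre and at 3.55, 2.51 and 2.31 on Foxp3CreTgfbr2 f/f. In both cases the higher-intensity knockout array was no lower than its controls, and whether the probes lie in the deleted part is not known here. Read across the experiments, Tgfbr2 was at 2.71 on Foxp3Cre/+Lkb1f/f replicate 3 against 3.25 on Foxp3Cre/+ replicate 3. Stk11 was at 2.78 on Foxp3CreTgfbr2 f/f replicate 1 against 3.05 on Foxp3Cre replicate 3. Arrays of 1 label also differed, with Tgfbr2 at 3.14 and 2.37 on Foxp3Cre/+Lkb1f/f replicates 1 and 2. Whether labels were exchanged between the higher-intensity arrays was not tested. Genotype names below thus mean the labels of the arrays. Foxp3 lay between 5.59 and 5.88 and the T cell gene Cd3e between 6.18 and 6.70 on all 12 arrays.

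Interferon-stimulated genes differed far more between arrays of 1 genotype than between genotypes. The mean over the 35 genes ran from 2.29 to 3.48 among the 3 Foxp3Cre/+ arrays, a 2.28-fold range, from 2.00 to 2.94 (1.92-fold) among Foxp3Cre/+Lkb1f/f and from 2.51 to 3.53 (2.03-fold) among Foxp3Cre. Only the Foxp3CreTgfbr2 f/f arrays were close to each other, from 2.75 to 2.94 (1.14-fold). The genotype means lay within these ranges, at 2.85 ± 0.60 (SD, n = 3) for Foxp3Cre/+, 2.61 ± 0.53 for Foxp3Cre/+Lkb1f/f, 2.88 ± 0.57 for Foxp3Cre and 2.82 ± 0.10 for Foxp3CreTgfbr2 f/f. From high to low the order was Foxp3Cre, Foxp3Cre/+, Foxp3CreTgfbr2 f/f and Foxp3Cre/+Lkb1f/f, and each neighbouring pair differed by less than the larger of its SDs. In bulk RNA, fewer cells of a kind and less RNA per cell cannot be told apart.

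**Figure D1:**
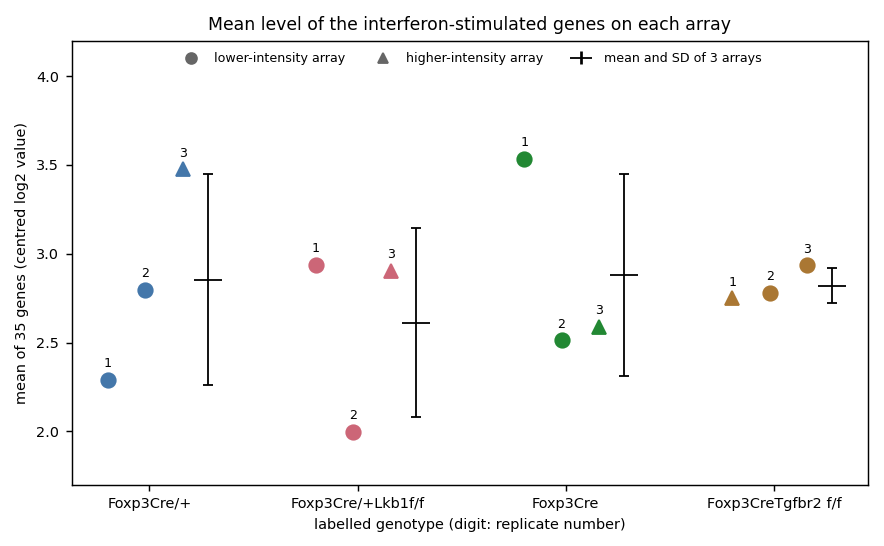
Mean centred log2 value of the 35 interferon-stimulated genes (vertical axis) on each array, by labelled genotype, with the replicate number beside each point, circles for lower-intensity and triangles for higher-intensity arrays, and the mean and SD of 3 arrays at the right of each group. Foxp3Cre replicate 1 (3.53) and Foxp3Cre/+ replicate 3 (3.48) are highest, Foxp3Cre/+Lkb1f/f replicate 2 (2.00) is lowest, and the genotype means differ by less than the SDs of 3 of the 4 groups.

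Most of the genes were high and low on the same arrays. The median SD within a genotype was 0.61 for the 35 genes, against 0.25 for all 22180 genes and 0.27 for the 11844 genes with a mean above the array median. Between the lowest and the highest of the 12 arrays, 31 of the 35 genes (88.6%) differed by over 1 log2 unit, against 30.3% of all genes. In the Lkb1 experiment 30 of the 35 had their highest of 6 arrays on Foxp3Cre/+ replicate 3 (21.1% of all transcript clusters did), 25 had their lowest on Foxp3Cre/+Lkb1f/f replicate 2 (24.3%) and the other 10 on Foxp3Cre/+ replicate 1 (13.8%). In the Tgfbr2 experiment 29 of the 35 were highest on Foxp3Cre replicate 1 (15.6%), while the lowest array varied, with 17 genes lowest on Foxp3Cre replicate 2 (17.9%) and 9 on Foxp3Cre replicate 3 (19.7%). These arrays were picked out by their values, and the counts describe them without a test.

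**Figure D2:**
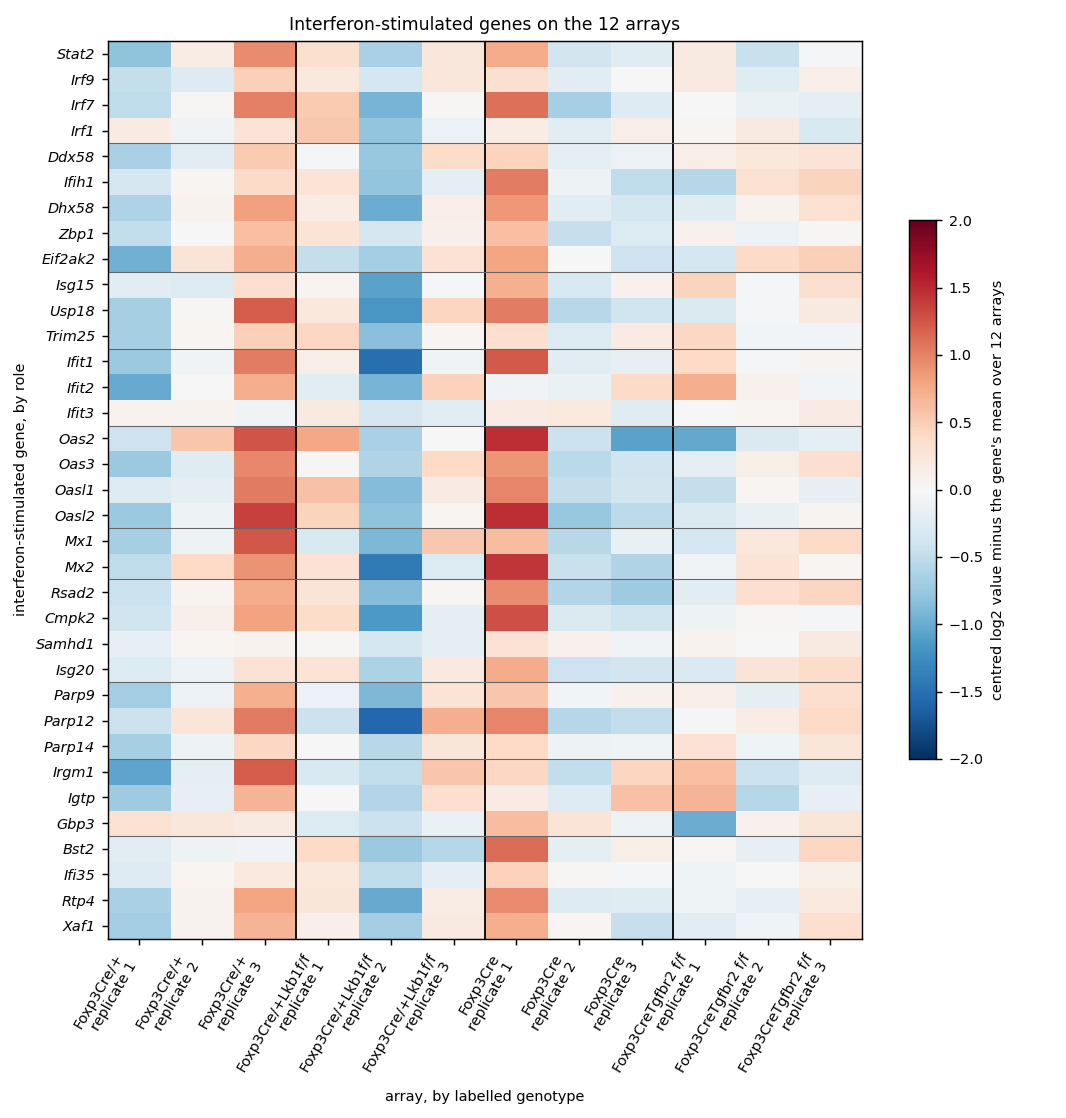
Centred log2 value of each of the 35 genes minus that gene's mean over the 12 arrays (colour, in log2 units from -2 in blue to 2 in red), with genes in rows by role and arrays in columns by labelled genotype. Whole columns share a colour: Foxp3Cre/+ replicate 3 and Foxp3Cre replicate 1 are red for nearly every gene and Foxp3Cre/+Lkb1f/f replicate 2 is blue, while Ifit3 and Samhd1 stay pale throughout.

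Single pairs of arrays of 1 genotype show the contrast gene by gene. It was widest between Foxp3Cre/+ replicates 3 and 1, which differ in intensity and in the sex that Xist shows, with 33 of the 35 genes higher on replicate 3, a median difference of 1.37 log2 units (2.58-fold) and 25 of the 35 past 1 log2 unit, against 3.43% of all genes. Among pairs of like intensity, Foxp3Cre replicate 1 exceeded Foxp3Cre replicate 2, both lower-intensity arrays that match their labelled sex, for 34 of the 35 genes, with a median difference of 1.11 log2 units (2.15-fold). Of the 72 genes among 22180 (0.325%) that were higher by 1 log2 unit or more in this pair, 20 were interferon-stimulated genes of the list and 5 came from a further list of such genes described below. Foxp3Cre/+Lkb1f/f replicate 1 exceeded its replicate 2, again of like intensity and matching sex, for all 35 genes by a median of 0.98 (1.97-fold), and 17 of the 35 passed 1 log2 unit against 1.81% of all genes. Foxp3Cre/+ replicate 2 exceeded replicate 1 for 31 of the 35 by a median of 0.55, with 1 gene past 1 log2 unit, near the 1.77% of all genes that were. The pair Foxp3CreTgfbr2 f/f replicates 3 and 2 was nearly level, with a median of 0.16 and none of the 35 past 1 log2 unit (0.0992% of all genes were).

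**Figure D3:**
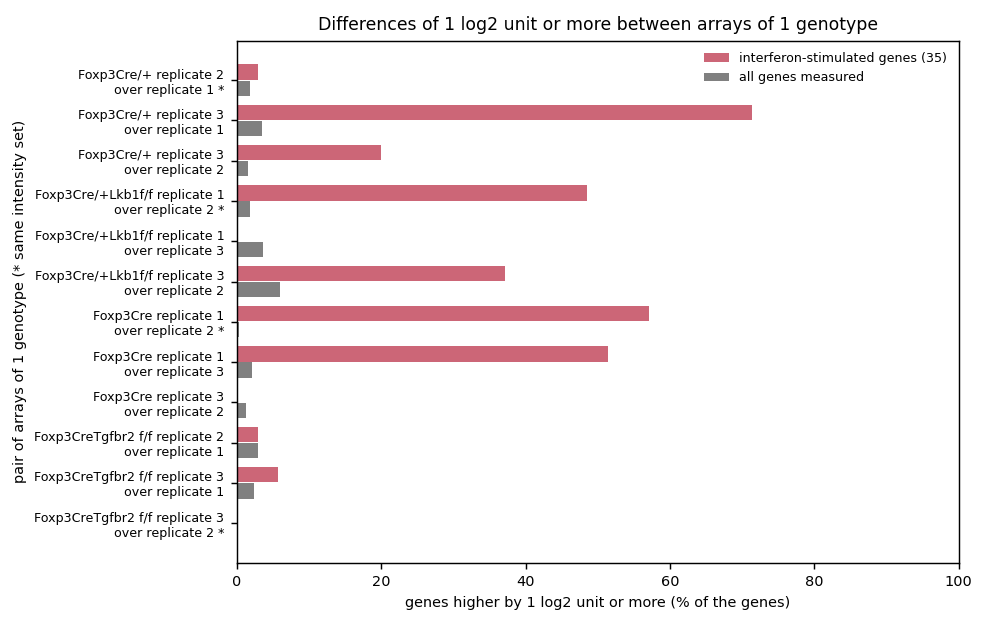
Share of genes (horizontal axis, percent) that were higher by 1 log2 unit or more on the first than on the second array of each pair of the same labelled genotype, for the 35 interferon-stimulated genes (red) and all 22180 genes (grey), each pair taken in the direction in which the median of the 35 genes was above 0. Foxp3Cre replicate 1 over replicate 2 shows 20 of the 35 genes against 0.325% of all genes, and Foxp3CreTgfbr2 f/f replicate 3 over replicate 2 shows none of the 35.

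Among the transcription factors, 3 of the 4 were highest on the same array of each experiment as most of the list, and Irf1 was not. Stat2, the signal transducer of type I interferon, was at 2.95, 3.90 and 4.70 on Foxp3Cre/+, 4.08, 3.10 and 3.98 on Foxp3Cre/+Lkb1f/f, 4.50, 3.39 and 3.52 on Foxp3Cre and 3.93, 3.31 and 3.71 on Foxp3CreTgfbr2 f/f. Irf9, which gives ISGF3 its DNA contact, was at 3.20, 3.43 and 4.15 on Foxp3Cre/+, 3.89, 3.34 and 3.91 on Foxp3Cre/+Lkb1f/f, 4.01, 3.46 and 3.69 on Foxp3Cre and 3.87, 3.43 and 3.81 on Foxp3CreTgfbr2 f/f. Both were high on Foxp3Cre/+ replicate 3 and Foxp3Cre replicate 1, and Stat2 spanned 3.36-fold over the 12 arrays against 1.93-fold for Irf9. Irf7, the factor that amplifies type I interferon production, was at 3.22, 3.77 and 4.74 on Foxp3Cre/+, 4.26, 2.81 and 3.76 on Foxp3Cre/+Lkb1f/f, 4.84, 3.07 and 3.48 on Foxp3Cre and 3.74, 3.61 and 3.54 on Foxp3CreTgfbr2 f/f. It spanned 4.07-fold, with 4.74 and 4.84 on those 2 arrays and no other value above 4.26. Irf1, which answers mainly to interferon-gamma, was at 2.69, 2.46 and 2.80 on Foxp3Cre/+, 3.07, 1.73 and 2.40 on Foxp3Cre/+Lkb1f/f, 2.67, 2.30 and 2.66 on Foxp3Cre and 2.56, 2.71 and 2.22 on Foxp3CreTgfbr2 f/f. Its highest array was Foxp3Cre/+Lkb1f/f replicate 1 and its lowest Foxp3Cre/+Lkb1f/f replicate 2, so that a single knockout genotype held both ends of its range.

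The RNA sensors and the antiviral kinase moved with the list. Ddx58 (RIG-I), a cytosolic sensor of viral RNA, was at 2.73, 3.17 and 3.90 on Foxp3Cre/+, 3.35, 2.62 and 3.74 on Foxp3Cre/+Lkb1f/f, 3.82, 3.19 and 3.27 on Foxp3Cre and 3.51, 3.59 and 3.64 on Foxp3CreTgfbr2 f/f. Zbp1, a sensor of Z-form nucleic acid that can start cell death, was at 4.07, 4.57 and 5.17 on Foxp3Cre/+, 4.83, 4.23 and 4.66 on Foxp3Cre/+Lkb1f/f, 5.16, 4.11 and 4.28 on Foxp3Cre and 4.65, 4.45 and 4.60 on Foxp3CreTgfbr2 f/f. For both, the groups overlapped in each experiment, and Foxp3Cre/+ replicate 1 or Foxp3Cre/+Lkb1f/f replicate 2 was the lowest array. The sensors Ifih1 and Dhx58 and the kinase Eif2ak2 (PKR), which stops translation on double-stranded RNA, spanned 3.53-fold, 3.63-fold and 3.38-fold over the 12 arrays. Ifih1 was highest on Foxp3Cre replicate 1 (4.61), as were Dhx58 (3.39) and Eif2ak2 (2.38).

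Isg15, the ubiquitin-like protein whose promoter stretch holds 3 ISRE cores, was at 2.39, 2.33 and 2.95 on Foxp3Cre/+, 2.66, 1.53 and 2.57 on Foxp3Cre/+Lkb1f/f, 3.32, 2.30 and 2.69 on Foxp3Cre and 3.06, 2.58 and 2.94 on Foxp3CreTgfbr2 f/f. Foxp3Cre/+Lkb1f/f replicate 2 stood alone at the bottom, and the other 11 arrays lay between 2.30 and 3.32. Usp18, the protease that removes Isg15 and dampens the type I receptor, ran from 2.49 to 4.87 (5.18-fold). Trim25, a ubiquitin ligase that acts on RIG-I, ran from 2.41 to 3.72 (2.47-fold). All 3 genes of the Isg15 system had their lowest array in Foxp3Cre/+Lkb1f/f replicate 2.

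The Ifit genes, whose products bind viral RNA or each other, did not move as 1 block. Ifit1 was at 2.0, 2.67 and 3.77 on Foxp3Cre/+, 2.86, 1.24 and 2.68 on Foxp3Cre/+Lkb1f/f, 3.98, 2.52 and 2.59 on Foxp3Cre and 3.15, 2.73 and 2.81 on Foxp3CreTgfbr2 f/f. Ifit2 was at 0.57, 1.57 and 2.30 on Foxp3Cre/+, 1.37, 0.64 and 2.04 on Foxp3Cre/+Lkb1f/f, 1.51, 1.45 and 1.96 on Foxp3Cre and 2.31, 1.66 and 1.52 on Foxp3CreTgfbr2 f/f. Ifit3 was at 1.58, 1.57 and 1.44 on Foxp3Cre/+, 1.68, 1.16 and 1.28 on Foxp3Cre/+Lkb1f/f, 1.66, 1.70 and 1.26 on Foxp3Cre and 1.49, 1.55 and 1.67 on Foxp3CreTgfbr2 f/f. Ifit1 spanned 6.69-fold and Ifit2 3.32-fold, whereas Ifit3, whose promoter stretch holds 2 ISRE cores as that of Ifit1 does, spanned 1.45-fold. The highest of 12 arrays for Ifit2 was Foxp3CreTgfbr2 f/f replicate 1 (2.31) and not Foxp3Cre replicate 1 (1.51). Close copies of Ifit, Oas, Gbp and Mx genes exist in the mouse genome, and how far a transcript cluster also reads such a copy was not tested.

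The oligoadenylate synthetase (OAS) genes, whose classical members make the signal that switches on RNase L, gave some of the widest swings. Oas2 was at 2.22, 3.19 and 3.89 on Foxp3Cre/+, 3.40, 1.98 and 2.62 on Foxp3Cre/+Lkb1f/f, 4.12, 2.21 and 1.56 on Foxp3Cre and 1.60, 2.35 and 2.45 on Foxp3CreTgfbr2 f/f. Oasl1, which in mice restrains Irf7 translation, was at 1.17, 1.23 and 2.47 on Foxp3Cre/+, 2.02, 0.56 and 1.59 on Foxp3Cre/+Lkb1f/f, 2.41, 0.95 and 1.05 on Foxp3Cre and 0.95, 1.46 and 1.26 on Foxp3CreTgfbr2 f/f. Foxp3Cre/+ replicate 3 and Foxp3Cre replicate 1 stood above all other arrays for both genes. Oasl2 was at 1.79, 2.43 and 3.90 on Foxp3Cre/+, 2.98, 1.74 and 2.58 on Foxp3Cre/+Lkb1f/f, 4.02, 1.78 and 2.02 on Foxp3Cre and 2.24, 2.39 and 2.60 on Foxp3CreTgfbr2 f/f. Oas3 ran from 1.46 to 3.15 (3.24-fold), Oasl2 spanned 4.88-fold and Oas2 5.87-fold. In the Foxp3Cre group Oas2 had 1 high array (4.12) and a pair near the bottom of its range (2.21 and 1.56), with an SD of 1.33.

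Mx1 and Mx2, dynamin-like GTPases against viruses, of which Mx1 is defective in most inbred laboratory mice, also ran over wide ranges. Mx1 was at -1.16, -0.59 and 0.76 on Foxp3Cre/+, -0.80, -1.39 and 0.05 on Foxp3Cre/+Lkb1f/f, 0.12, -1.05 and -0.64 on Foxp3Cre and -0.85, -0.28 and -0.09 on Foxp3CreTgfbr2 f/f. Mx2 was at 0.62, 1.53 and 2.02 on Foxp3Cre/+, 1.42, -0.30 and 0.85 on Foxp3Cre/+Lkb1f/f, 2.55, 0.67 and 0.52 on Foxp3Cre and 1.04, 1.39 and 1.15 on Foxp3CreTgfbr2 f/f. Mx1 was the only gene of the 35 with a mean below the array median (-0.49), and Mx2 had the widest span of the list, 7.23-fold. Mx2 was at -0.30 on Foxp3Cre/+Lkb1f/f replicate 2 and at 0.52 or above on all other arrays.

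Enzymes that act on nucleotides and nucleic acids split into wide and narrow genes. Rsad2 (viperin), which makes a chain-terminating nucleotide, was at 1.01, 1.49 and 2.17 on Foxp3Cre/+, 1.68, 0.57 and 1.47 on Foxp3Cre/+Lkb1f/f, 2.38, 0.85 and 0.73 on Foxp3Cre and 1.22, 1.76 and 1.86 on Foxp3CreTgfbr2 f/f. Cmpk2, its neighbour in the genome and a nucleotide kinase, was at 2.43, 2.93 and 3.63 on Foxp3Cre/+, 3.18, 1.67 and 2.63 on Foxp3Cre/+Lkb1f/f, 4.11, 2.53 and 2.42 on Foxp3Cre and 2.72, 2.85 and 2.78 on Foxp3CreTgfbr2 f/f. Both were lowest on Foxp3Cre/+Lkb1f/f replicate 2 and highest on Foxp3Cre replicate 1. Isg20, an exonuclease, was at 2.41, 2.58 and 2.99 on Foxp3Cre/+, 2.96, 2.05 and 2.88 on Foxp3Cre/+Lkb1f/f, 3.44, 2.28 and 2.31 on Foxp3Cre and 2.41, 2.95 and 3.06 on Foxp3CreTgfbr2 f/f. Samhd1, which breaks down deoxynucleotides, was at 5.91, 6.12 and 6.14 on Foxp3Cre/+, 6.10, 5.72 and 5.89 on Foxp3Cre/+Lkb1f/f, 6.37, 6.17 and 6.01 on Foxp3Cre and 6.15, 6.09 and 6.26 on Foxp3CreTgfbr2 f/f. Samhd1 spanned 1.57-fold over the 12 arrays, against 5.40-fold for Cmpk2, and every one of its arrays lay between 5.72 and 6.37.

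The ADP-ribosyltransferases Parp9, Parp12 and Parp14 had their lowest arrays in Foxp3Cre/+ replicate 1 or Foxp3Cre/+Lkb1f/f replicate 2. Parp12 was at 2.12, 2.79 and 3.58 on Foxp3Cre/+, 2.11, 0.96 and 3.26 on Foxp3Cre/+Lkb1f/f, 3.51, 1.97 and 2.05 on Foxp3Cre and 2.50, 2.69 and 2.94 on Foxp3CreTgfbr2 f/f. Parp14 was at 3.19, 3.75 and 4.27 on Foxp3Cre/+, 3.84, 3.29 and 4.09 on Foxp3Cre/+Lkb1f/f, 4.24, 3.75 and 3.76 on Foxp3Cre and 4.14, 3.77 and 4.09 on Foxp3CreTgfbr2 f/f. Parp12 spanned 6.12-fold and Parp14 2.11-fold, and Parp9 ran from 1.02 to 2.62 (3.03-fold). In Parp12, Foxp3Cre/+Lkb1f/f alone held values from 0.96 to 3.26.

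GTPases raised by interferon-gamma showed other array patterns. Igtp (Irgm3), whose stretch carries both a GAS and an ISRE match, was at 3.74, 4.28 and 5.13 on Foxp3Cre/+, 4.44, 3.86 and 4.78 on Foxp3Cre/+Lkb1f/f, 4.61, 4.18 and 5.04 on Foxp3Cre and 5.13, 3.87 and 4.29 on Foxp3CreTgfbr2 f/f. It was high on all 4 higher-intensity arrays, from 4.78 to 5.13, against 3.74 to 4.61 on the other 8. Irgm1 shared this, with 2.66 to 3.43 on the higher-intensity arrays and 1.16 to 2.64 on the others. Gbp3, a guanylate-binding protein, was at 2.58, 2.49 and 2.45 on Foxp3Cre/+, 1.99, 1.84 and 2.13 on Foxp3Cre/+Lkb1f/f, 2.89, 2.53 and 2.16 on Foxp3Cre and 1.28, 2.35 and 2.51 on Foxp3CreTgfbr2 f/f. Its 3 Foxp3Cre/+ arrays lay close together and above all Foxp3Cre/+Lkb1f/f arrays, while Foxp3CreTgfbr2 f/f replicate 1 stood far below the other arrays of that experiment.

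The remaining genes are single factors. Bst2 (tetherin), which holds budding virus at the cell surface, was at 2.87, 3.0 and 3.02 on Foxp3Cre/+, 3.50, 2.35 and 2.53 on Foxp3Cre/+Lkb1f/f, 4.21, 2.91 and 3.21 on Foxp3Cre and 3.12, 2.93 and 3.52 on Foxp3CreTgfbr2 f/f. Ifi35 was at 3.83, 4.13 and 4.28 on Foxp3Cre/+, 4.31, 3.59 and 3.91 on Foxp3Cre/+Lkb1f/f, 4.56, 4.12 and 4.07 on Foxp3Cre and 4.0, 4.10 and 4.21 on Foxp3CreTgfbr2 f/f. Foxp3Cre replicate 1 was the highest of the 12 arrays for both, and Bst2 spanned 3.63-fold against 1.96-fold for Ifi35. Rtp4 ran from 2.51 to 4.47 (3.89-fold) and Xaf1, a partner of the apoptosis inhibitor XIAP, from 1.97 to 3.40 (2.68-fold). Among measured genes with a promoter window, the 13 with an ISRE core had a median range of 1.76 log2 units over the 12 arrays (0.53 to 2.74) and the 13 without had 1.42 (0.65 to 2.61). These ranges overlapped widely.

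The Lkb1 comparison asks whether Treg cells that delete Lkb1 carry less or more interferon-stimulated RNA than their controls. On the arrays labelled Foxp3Cre/+Lkb1f/f, 33 of the 35 genes had a lower mean than on those labelled Foxp3Cre/+ (53.1% of all 41345 transcript clusters did), with a median difference of -0.24 log2 units against -0.01 for all transcript clusters. Irf9 and Parp14 were the exceptions, with differences of 0.12 and 0.01 (46.9% of transcript clusters had a higher mean). By role, every measured gene had a lower mean among the 5 sensors and kinase (median -0.26), the 3 genes of the Isg15 system (-0.30), the 3 Ifit genes (-0.15), the 4 OAS genes (-0.26), both Mx genes (-0.56), the 4 nucleotide and nucleic acid enzymes (-0.23), the 3 interferon-gamma GTPases (-0.07) and the 4 single factors (-0.16), as did 3 of 4 transcription factors (-0.19) and 2 of 3 Parp genes (-0.21). None of the differences passed the test. limma with Benjamini-Hochberg adjustment over 41345 transcript clusters called 0 of the 35 genes and 0 transcript clusters (0%) at an adjusted p of 0.05, with 462 transcript clusters at an unadjusted p under 0.05. The adjusted p of every gene of the list was 1.00. The direction rested on 2 arrays, since without Foxp3Cre/+ replicate 3 it was 14 genes that were lower (median 0.12) and without Foxp3Cre/+Lkb1f/f replicate 2 it was 10 (median 0.08).

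The lowest differences belonged to Mx2 (-0.73 ± 0.52 log2 units, SE, 3 against 3 arrays), Parp12 (-0.71 ± 0.62), Ifit1 (-0.56 ± 0.57), Gbp3 (-0.52 ± 0.16), Cmpk2 (-0.50 ± 0.45) and Oas2 (-0.44 ± 0.51). The groups overlapped for all of these except Gbp3. Mx2 (1.66-fold lower) and Parp12 (1.64-fold lower) were the 2 of 35 genes at 1.5-fold or more, as were 2.2% of all transcript clusters. Gbp3 had a mean of 2.51 ± 0.06 (SD, n = 3) in Foxp3Cre/+ and 1.99 ± 0.14 in Foxp3Cre/+Lkb1f/f, a 1.44-fold difference. The unadjusted limma p was 0.016 (adjusted p = 1.00) and the two-sided exact permutation p was 0.10, the smallest that 3 against 3 arrays can give. Lower values without overlap occurred in 1 of the 35 genes and in 2.05% of all transcript clusters, and an unadjusted p under 0.05 with a lower mean in 1 of 35 and in 0.697%, so that the count is close to the background. Gbp3 was lower both on the lower-intensity arrays (-0.62) and on the higher-intensity pair (-0.32).

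At the other end stood Irf9 (0.12 ± 0.30), Parp14 (0.01 ± 0.33), Igtp (-0.03 ± 0.40), Zbp1 (-0.03 ± 0.31), Isg20 (-0.03 ± 0.30) and Ddx58 (-0.03 ± 0.39), all within their SE of 0. Among the central factors the differences were -0.13 ± 0.48 for Stat2, -0.30 ± 0.49 for Irf7, -0.25 ± 0.34 for Irf1 and -0.30 ± 0.35 for Isg15. On the lower-intensity arrays alone (2 against 2), which match their labelled sex, 21 of the 35 genes were lower and the median difference was -0.06. Between the 2 higher-intensity arrays (1 against 1, no test) all 35 were lower, with a median of -0.50. The 2 sets thus gave the same direction for 21 genes and opposite directions for 14. Stat2, Irf7, Irf9, Zbp1 and Oasl2 were among those that were higher in Foxp3Cre/+Lkb1f/f on the lower-intensity arrays, by 0.17, 0.04, 0.30, 0.21 and 0.25.

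**Figure D4:**
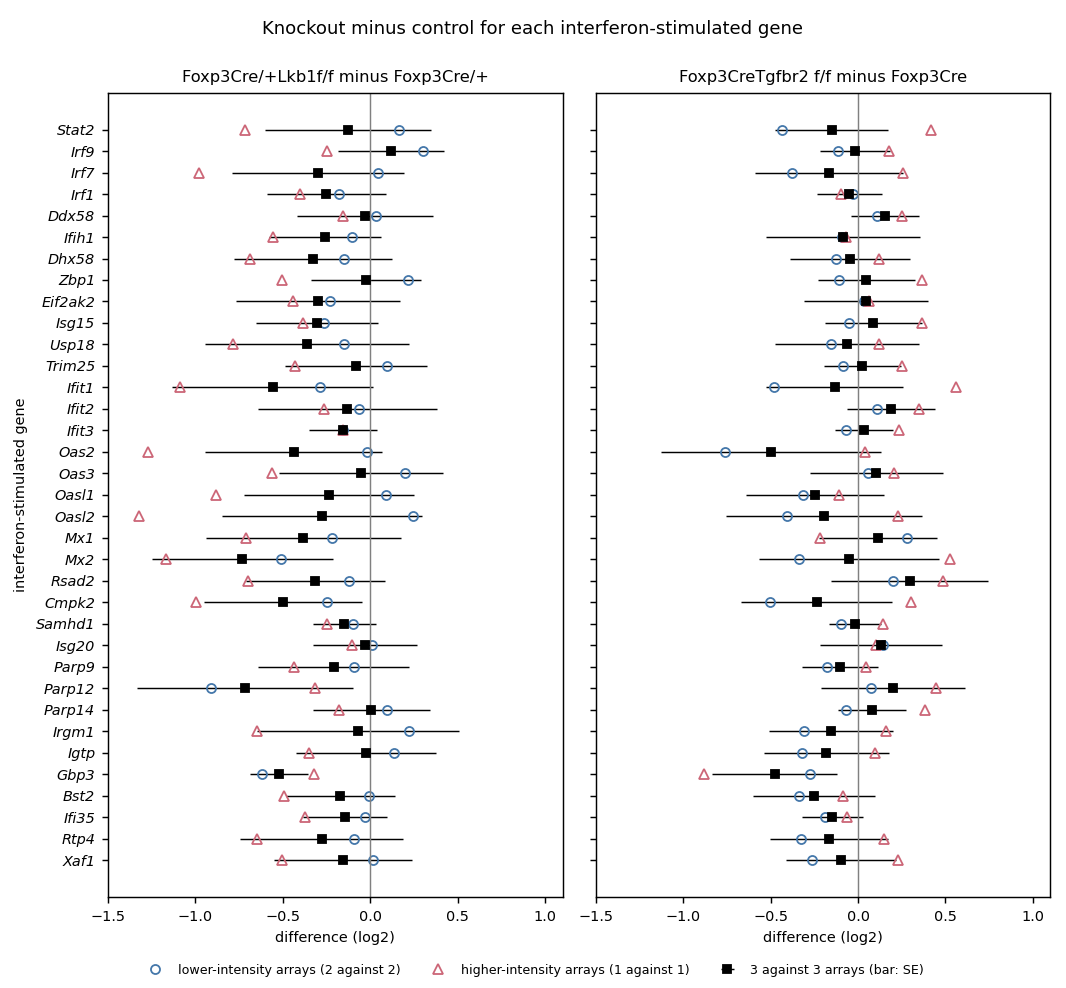
Knockout minus control for each of the 35 genes (log2, horizontal axes), in the Lkb1 experiment on the left and the Tgfbr2 experiment on the right, as the difference of 3 against 3 arrays with its SE (black), of the lower-intensity arrays (blue circles) and of the higher-intensity arrays (red triangles). In the Lkb1 panel all 35 triangles lie below 0 while 21 of 35 circles do, and in the Tgfbr2 panel 7 triangles and 27 circles lie below 0.

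The Tgfbr2 comparison asks the same of Treg cells that delete the TGF-beta receptor subunit, and here the genes lay on both sides of 0. A lower mean in Foxp3CreTgfbr2 f/f was found for 22 of the 35 (46.9% of all transcript clusters), with a median difference of -0.05 against 0.01 for all transcript clusters. Again limma called 0 of the 35 genes and 0 transcript clusters (0%), with 706 transcript clusters at an unadjusted p under 0.05 but none of the 35 (0.614% of transcript clusters with a lower and 1.09% with a higher mean), and every adjusted p of the list was 1.00. No gene of the list had groups without overlap (2.13% of transcript clusters were lower and 2.81% higher without overlap), and none reached 1.5-fold (0.692% did so lower and 1.49% higher). The direction changed with the arrays used. Without Foxp3Cre replicate 1, the highest array of the 12, 3 of the 35 were lower and the median was 0.25, and without Foxp3CreTgfbr2 f/f replicate 2 it was 17 with a median of 0.02.

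The lowest differences were those of Oas2 (-0.50 ± 0.63 log2 units, SE), Gbp3 (-0.48 ± 0.36), Bst2 (-0.25 ± 0.35), Oasl1 (-0.24 ± 0.39), Cmpk2 (-0.24 ± 0.43) and Oasl2 (-0.19 ± 0.56). In Oas2 the SE was larger than the difference, since Foxp3Cre replicate 1 stood at 4.12 and its fellow controls at 2.21 and 1.56. The highest were Rsad2 (0.30 ± 0.45), Parp12 (0.20 ± 0.41), Ifit2 (0.19 ± 0.25), Ddx58 (0.15 ± 0.20), Isg20 (0.13 ± 0.35) and Mx1 (0.12 ± 0.34). Stat2, Irf9, Irf7 and Irf1 were at -0.15 ± 0.32, -0.02 ± 0.20, -0.17 ± 0.42 and -0.05 ± 0.19, and Isg15 was at 0.09 ± 0.28. On the lower-intensity arrays alone 27 genes were lower (median -0.13), and between the 2 higher-intensity arrays 7 were (median 0.17). Only 13 genes kept a direction across the 2 sets, 6 of them lower and 7 higher.

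The difference of the 2 knockout effects was tested over the 12 arrays. The Lkb1 effect was below the Tgfbr2 effect for 27 of the 35 genes (54.8% of all transcript clusters) and above it for 8 (45.2%), with a median of -0.13 log2 units, and limma called 0 of the 35 and 0 transcript clusters (0%), with 406 transcript clusters at an unadjusted p under 0.05. The largest gap was that of Parp12, at -0.91 ± 0.82, followed by Mx2 at -0.68 ± 0.81 and Rsad2 at -0.61 ± 0.65, each with an adjusted p of 1.00. Without Foxp3Cre/+ replicate 3 or without Foxp3Cre/+Lkb1f/f replicate 2 the Lkb1 effect was below for 8 genes, and on the lower-intensity arrays alone for 15. The 2 experiments were thus not shown to differ in these genes.

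The other genes of the pathway, taken from separate lists, add the levels around the response. Of 60 measured, 43 had a lower mean in Foxp3Cre/+Lkb1f/f (median -0.10) and 27 in Foxp3CreTgfbr2 f/f (median 0.01), and none passed the test. Receptors and kinases (Ifnar1, Ifnar2, Ifngr1, Ifngr2, Jak1, Jak2 and Tyk2) had medians of -0.01 and 0.13 in the 2 comparisons. Negative regulators had medians of -0.11 and -0.03 and upstream sensors and adaptors of -0.25 and 0.06. Ifngr1 and Ifngr2, the chains of the interferon-gamma receptor, gave the highest differences in the Lkb1 comparison, 0.47 ± 0.35 (SE) and 0.22 ± 0.43. Ifngr1 was at 5.70, 5.04 and 4.31 on Foxp3Cre/+Lkb1f/f against 4.61, 4.67 and 4.37 on Foxp3Cre/+, so the groups overlapped. In the Tgfbr2 comparison Ifngr1 (0.37 ± 0.22) and Slfn8 (0.36 ± 0.30) were the highest, and Tlr7 (-0.40 ± 0.43) and Oas1g (-0.39 ± 0.44) the lowest.

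On average the genes for the interferons themselves differed little between arrays. Ifnb1 lay between -2.09 and -1.59 on all 12 arrays, below the array median, and the 10 measured ligand genes had a mean between -0.09 and 0.17 on every array. This mean joins unlike genes. Ifna1, Ifna4, Ifnl2 and Ifnl3 lay above the array median on all 12 arrays, and Ifna2, Ifnab, Ifnk and Ifne lay below it, as Ifnb1 did. Ifna4 ran from 2.41 to 3.53 and Ifnab from -2.05 to -0.79, so single ligands did differ between arrays. Ifng, the gene for interferon-gamma, was at 1.33, 0.59 and 0.36 on Foxp3Cre/+ and at 0.09, -0.32 and 0.05 on Foxp3Cre/+Lkb1f/f. Its groups did not overlap, and the difference was -0.81 ± 0.29 (SE) with an unadjusted limma p of 0.0254 and an adjusted p of 1.00. Cxcl10, a chemokine raised by interferon-gamma, was at 1.19, 0.82 and 1.35 on Foxp3Cre/+ and at 0.00171, -0.53 and 0.56 on Foxp3Cre/+Lkb1f/f. It too did not overlap, with a difference of -1.11 ± 0.31 (limma, unadjusted p = 0.00882, adjusted p = 1.00). Lower values without overlap occurred in 2 of the 60 genes, Ifng and Cxcl10, and in 2.05% of all transcript clusters. These 2 genes and Tlr7, the endosomal RNA sensor (-1.12 ± 0.44, limma, unadjusted p = 0.0381, adjusted p = 1.00), were the 3 of 60 with a lower mean at an unadjusted p under 0.05, while 0.697% of all transcript clusters were.

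A list of 29 further interferon-stimulated genes, none of them in the main list, showed the same arrays. It was highest on Foxp3Cre/+ replicate 3 (mean 3.43) and Foxp3Cre replicate 1 (3.29) and lowest on Foxp3Cre/+Lkb1f/f replicate 2 (2.29), and 24 of its 29 genes had their highest of the 6 Lkb1 arrays on Foxp3Cre/+ replicate 3. The median SD within a genotype was 0.45. Of the 29 genes 24 had a lower mean in Foxp3Cre/+Lkb1f/f (median -0.17) and 17 in Foxp3CreTgfbr2 f/f (median -0.03).

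Markers of other cells differed between arrays too, and their values stand here beside the arrays that set the interferon pattern. The 16 macrophage and monocyte markers averaged 3.32 on Foxp3Cre/+ replicate 2 and 0.06 to 1.41 on the other 11 arrays. The 9 B cell markers averaged 2.38 on Foxp3Cre/+ replicate 3 and 1.58 on Foxp3Cre/+Lkb1f/f replicate 3, against 0.13 to 0.67 elsewhere. Ms4a1 (CD20), a defining B cell marker, was at 1.48 and -0.34 on these arrays and at -1.67 to -1.01 on the other 10. By group, the macrophage mean ran from 0.70 to 3.32 in Foxp3Cre/+, 0.68 to 1.35 in Foxp3Cre/+Lkb1f/f, 0.09 to 0.63 in Foxp3Cre and 0.06 to 0.64 in Foxp3CreTgfbr2 f/f. The B cell mean ran from 0.45 to 2.38, 0.13 to 1.58, 0.345 to 0.49 and 0.48 to 0.67 in the same order. In the Lkb1 comparison 16 of 16 macrophage markers (median -0.88) and 9 of 9 B cell markers (median -0.57) had a lower mean in Foxp3Cre/+Lkb1f/f. Their part in the Lkb1 difference of the interferon-stimulated genes was not tested. On Foxp3Cre replicate 1, where the interferon-stimulated genes were highest, the macrophage mean (0.63) was the highest of its group, against 0.44 and 0.09. The B cell mean of that array (0.37) lay between those of its fellow controls (0.345 and 0.49). Ly6c2, a surface marker of monocytes and some T cells, is 1 of the 16 macrophage and monocyte markers. It was at 5.15 on Foxp3Cre/+ replicate 3 and 5.18 on Foxp3Cre replicate 1 and at 2.69 to 3.48 on the other 10 arrays. The list did not follow it on Foxp3Cre/+ replicate 3, where the mean of the 16 markers (0.70) was the lowest of its group. On Foxp3Cre replicate 1, Ly6c2 stood further above replicate 2 (3.14) than any other of the 16 markers, which went both ways. Ccr2 was at 1.83 against 1.34, C1qb at 0.66 against 0.33 and Csf1r at 0.88 against 0.85. C1qa was at 1.23 against 1.31, Hmox1 at -0.05 against 0.13 and Spic at -0.20 against 0.15. Siglech, a defining marker of the plasmacytoid dendritic cells that make type I interferon, lay between -0.15 and 0.20 on all 12 arrays, at about the array median, and the 7 markers of these cells averaged -0.06 to 0.35. The Treg and CD4 T cell list averaged 5.13 to 5.49 and conventional dendritic cell markers -0.33 to 0.65. Natural killer cell markers averaged -1.10 to -0.02 and CD8 markers 0.54 to 1.85, with Foxp3Cre/+ replicate 3 the highest array for both.

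**Figure D5:**
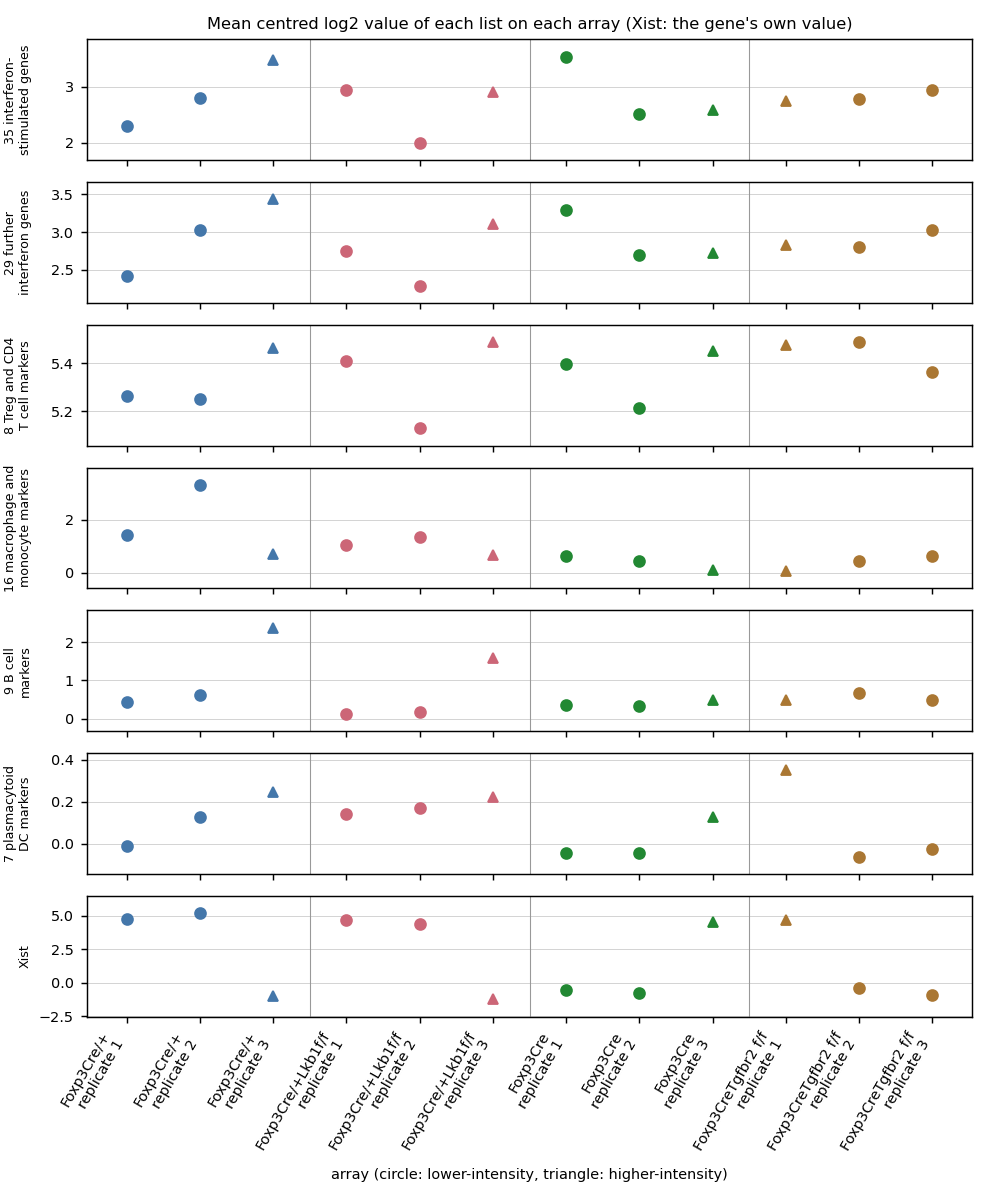
Mean centred log2 value per array (vertical axes, each panel with its own range) of the 35 interferon-stimulated genes, 29 further such genes, 4 lists of cell markers, and the value of Xist, with arrays in columns by labelled genotype and triangles for the higher-intensity arrays. The further genes follow the 35, the macrophage markers peak on Foxp3Cre/+ replicate 2 (3.32), the B cell markers on Foxp3Cre/+ replicate 3 (2.38), and Xist on the 4 triangles is opposite to the other arrays of the same label.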

How the data were processed

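Gene expression in the sorted Treg cells was measured on Affymetrix mouse gene arrays, 1 per sample. The authors processed the scans in Agilent GeneSpring, and the deposited table holds 1 log2 expression value per transcript cluster and array (41345 transcript clusters, 12 arrays). How probes were summarized, and how arrays were normalized, was not stated. Array medians differed, so each array's median was subtracted here. Of the transcript clusters, 23521 carried 1 gene symbol in the platform annotation, 1820 carried several and 16004 none, and genes were named only from those with 1. Array annotation can be old, and with 3 arrays a group the precision is set by their number.

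Groups followed the genotype labels. Knockout minus control was fitted with limma 3.58.1 in R 4.3.3 (lmFit, eBayes, 3 against 3 arrays), and the difference of the 2 effects over 12 arrays, with Benjamini-Hochberg adjustment over 41345 transcript clusters and a threshold of 0.05. Two-sided exact permutation tests were run per gene, and 3 against 3 arrays allow no p below 0.10. The p-values measure the spread between the labelled replicates. The fit was tested on simulated data. Counts, promoter searches and plots were made in Python 3.11.15 with pandas 2.3.3 and matplotlib 3.10.9, and promoter sequence was taken from RefSeq (GRCm38.p6).

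Values on every array are given for Stat2, Irf9, Irf7, Irf1, Isg15, the 5 genes with the highest mean, and the 6 with the lowest and 6 with the highest difference in each comparison. The other genes are given by range, except Ifit3, whose values were added after they were seen. Of the other pathway genes the 2 lowest and 2 highest per comparison were named. Cxcl10 and the ligand and marker genes named singly were picked with their values in view. The members and all lists were chosen with earlier results of these data known. Marker lists were averaged per array, and the 4 erythroid genes had no transcript cluster of their own. Alternatives were the deposited values without centring, quantile normalization, the intensity set as a block or each set alone, array weights, a trended robust prior, a filter on dim transcript clusters, the mean of all rows of a gene, all arrays in 1 model, the methods' t-test, a replicate block, and each array left out in turn.

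Replicate numbers are shared between the groups. In the Lkb1 experiment the deviations of same-numbered arrays from their group means correlated at 0.39, 0.30 and 0.74, which met the criterion set for pairing (over 0.1 in every pair), although both replicates 3 are higher-intensity arrays and Foxp3Cre/+ replicate 1 correlated more with Foxp3Cre/+Lkb1f/f replicate 2 (0.45). In the Tgfbr2 experiment the values were -0.52, 0.23 and -0.57, so those arrays share only a number. There the higher-intensity arrays, Foxp3Cre replicate 3 and Foxp3CreTgfbr2 f/f replicate 1, correlated at 0.72 despite unlike numbers.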

Additional observations from a re-analysis of the deposited data

How the results depend on the processing

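No transcript cluster and none of the 35 genes passed an adjusted p of 0.05 in limma under any alternative run. The methods' t-test gave 675 transcript clusters in the Lkb1 and 902 in the Tgfbr2 comparison at an unadjusted p under 0.05 and 0 after Benjamini-Hochberg adjustment. The number of the 35 genes with a lower mean was less stable. In the Lkb1 comparison (33 in all arrays) it was 21 on the lower-intensity arrays alone and 19 with array weights, and it ran from 10 (without Foxp3Cre/+Lkb1f/f replicate 2) to 35 (without Foxp3Cre/+ replicate 1), with 14 without Foxp3Cre/+ replicate 3. In the Tgfbr2 comparison (22) it was 7 on the higher-intensity arrays alone and ran from 3 (without Foxp3Cre replicate 1) to 31 (without Foxp3Cre replicate 2). For the difference of the effects (27) it was 15 on the lower-intensity arrays alone and 10 with array weights, and ran from 8 (without Foxp3Cre/+ replicate 3 or Foxp3Cre/+Lkb1f/f replicate 2) to 34 (without Foxp3Cre/+ replicate 1 or Foxp3Cre replicate 1). The medians over the genes ran from -0.51 to 0.12 (Lkb1), from -0.20 to 0.25 (Tgfbr2) and from -0.46 to 0.13 (difference) when 1 array was left out. The cause of these shifts was not tested. All other alternatives kept these counts within 1.5 times. In the Lkb1 comparison the deposited values gave 29 genes and quantile normalization gave 28. The replicate block, the intensity block, the trended robust prior, the single model of all arrays and the methods' t-test leave each difference unchanged. Their counts were thus fixed in advance and say nothing of stability.

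Each replicate number occurs once in every genotype. The replicate block could therefore not change the counts of genes with a lower mean (33, 22 and 27). It changed no call. At an unadjusted p under 0.05 the blocked Lkb1 fit had 1483 transcript clusters against 462 without the block. The Tgfbr2 fit had 495 against 706, and the difference of the effects 604 against 406.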

Other observations

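Other genes were searched for the array pattern of the interferon-stimulated genes. Of 22180 genes, 229 (1.03%) were highest on Foxp3Cre/+ replicate 3 among the Lkb1 arrays and on Foxp3Cre replicate 1 among the Tgfbr2 arrays and lowest on Foxp3Cre/+Lkb1f/f replicate 2, among them 19 of the 35 genes and 10 of the 29 further ones. This pattern was chosen after the values were seen. Taken singly, 22.4% of genes were highest on Foxp3Cre/+ replicate 3, 15.7% were highest on Foxp3Cre replicate 1 and 25.9% were lowest on Foxp3Cre/+Lkb1f/f replicate 2. Of the 229 genes, 198 lay outside all lists. Whether this exceeds the number that the single shares would give together was not tested. Outside all lists, the genes with the widest spread among the 229 were Ifi214, Ifit1bl1, Ms4a4c, Phf11c and Gm20559. Ifi214, an interferon-inducible PYHIN gene, was at 0.16, 1.83 and 3.58 on Foxp3Cre/+ and at 2.48, -0.09 and 2.98 on Foxp3Cre/+Lkb1f/f. Rnf213, a large ubiquitin ligase, was at 5.58 on Foxp3Cre/+ replicate 3 and 5.21 on Foxp3Cre replicate 1, and at 3.58 on Foxp3Cre/+Lkb1f/f replicate 2. Ifitm3, which blocks the entry of viruses into cells, was at 2.98, 2.59 and 1.61 on the same arrays.

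Among the 47 genes outside the 35 and the 29 further interferon-stimulated genes that were higher by 1 log2 unit or more on Foxp3Cre replicate 1 than on Foxp3Cre replicate 2, Gdpd3 stood out, at 5.52 against 0.86. Trim30c (2.45 against 0.33), Ly6c2 (5.18 against 3.14), Ifitm3 (2.59 against 0.75) and Tlr7 (3.06 against 1.42) followed, and Gadd45b was at 5.26 against 3.95. These names too were chosen after the values were seen, from 1 pair of arrays with no test.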
